A study of Mus musculus with 2 samples.

Results

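Oxidative phosphorylation (OXPHOS) subunits encoded in the nucleus were described in immune cells of mouse B16 melanoma. The members were all genes whose symbol begins with Nduf followed by a, b, c, s or v and a digit, with Uqcr, with Cox4 to Cox8 or with Atp5, leaving out names that carry -ps. This rule found 81 of the 31253 features counted, with 80 distinct symbols because Atp5o was listed under 2 identifiers. They were 37 genes of complex I, 8 of complex III, 18 of complex IV and 18 of complex V, and the 13 protein genes of the mitochondrial genome (mt- genes) were read beside them.

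The study sorted live CD45+ cells from B16 tumors of wild-type mice and sequenced them by droplet-based 3′ single-cell RNA sequencing. All mice had first been immunized under the skin of the left flank with irradiated, GM-CSF-producing B16 cells (B16-GM-CSF). The shRFP group then received, on the right flank 12 days later, B16 cells with a control hairpin RNA against a red fluorescent protein, and the shSdc1 group B16 cells with a hairpin against Sdc1, the heparan sulfate proteoglycan syndecan-1. Tumors were taken 16 days after that and digested with enzymes, and 6 tumors were pooled into 1 library per group. The genotype label calls the second group a knockout, whereas its title and protocol give a hairpin. Library and group are therefore the same, differences between mice were not measured, and no test between the groups was possible. Every interval below is a 95% interval for counting error alone.

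OXPHOS couples the oxidation of NADH and succinate to the making of ATP at the inner mitochondrial membrane. Complex I (NADH dehydrogenase) and complex III (cytochrome bc1) pump protons and pass electrons to complex IV (cytochrome c oxidase), which reduces oxygen, and complex V (ATP synthase) uses the proton gradient. Complexes I, III, IV and V are built from subunits of both genomes, so the cell must supply nuclear and mitochondrial transcripts for the same machines. In tumor immune cells the balance between this pathway and glycolysis differs with cell type and activation.

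There were 5786 shRFP barcodes and 5902 of shSdc1, of which 5225 and 5576 had at least 200 genes and under 10% of their counts from mt- genes. After removal of the 242 and 263 barcodes most like doublets, 4983 and 5313 cells with 3850273 and 4014132 unique molecular identifiers (UMIs, 1 per captured transcript) were kept, with medians of 650 and 593 UMIs per cell. The libraries shared 20 barcode sequences, 17 of them among kept cells. Ptprc, which encodes CD45, stood at 454 and 571 counts of UMIs scaled to 1000000 per library (CPM), and marker lists of melanoma, red, fibroblast, endothelial, keratinocyte and muscle cells, which the sort should remove, reached at most 0.0115% of UMIs (melanoma markers, 0.00745% in shRFP and 0.0115% in shSdc1). Sdc1 itself stood at 26.5 and 18.9 CPM, which checks nothing about the hairpin because the tumor cells were sorted away. Marker genes gave 16 clusters the classes monocyte/macrophage-like, T-like, NK-like, conventional DC 1-like, conventional DC 2-like, migratory DC-like, plasmacytoid DC-like, B and plasma-like and neutrophil-like, where DC stands for dendritic cell. Neither the members nor the mt- genes took part in the clustering.

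The 81 members together made up 1.68% of all UMIs in shRFP and 1.87% in shSdc1, a ratio of 1.12 (1.11 to 1.13). The share was thus higher in the shSdc1 library. Of the members, 77 were detected and 74 had at least 50 UMIs over both libraries, the minimum for a ratio to be read. Among these 74, 65 had a ratio above 1, as did 63.8% of the 9162 genes with at least 50 UMIs. At least 1.2-fold higher in shSdc1 were 19 members, where 33.9% of those genes were. No measured member was at least 1.2-fold lower, where 14.8% of genes were, although Cox4i2 and Cox6b2, with under 50 UMIs, had ratios of 0.48 and 0.75. The share of members past 1.2-fold, 19 of 74, was below that of all genes, while most members had a ratio above 1. Those genes share only the minimum with the members and were not matched to them in UMIs. Genes with few UMIs pass a fold more often by counting error, so these shares are not like for like.

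The median member had a log2 ratio of 0.20 and the median of all 9162 genes one of 0.12, so genes in general also lay on the higher side, by less. On a scale that sets the median gene to no change (median-of-ratios factors), the summed ratio of the members was 1.03 rather than 1.12. In monocyte/macrophage-like cells the same scale gave 1.11 and in T-like cells 1.01.

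By complex, the summed ratio was 1.19 for complex I, 1.12 for complex III, 1.09 for complex IV and 1.08 for complex V. Complex I therefore stood highest, with intervals of 1.16 to 1.21 against 1.06 to 1.10 for complex V. UMIs count transcripts once whatever their length, so levels in CPM are given without division by length. Members with processed pseudogenes may have lost reads that map to both, so comparisons of level between genes are less certain than ratios between libraries.

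**Figure D1:**
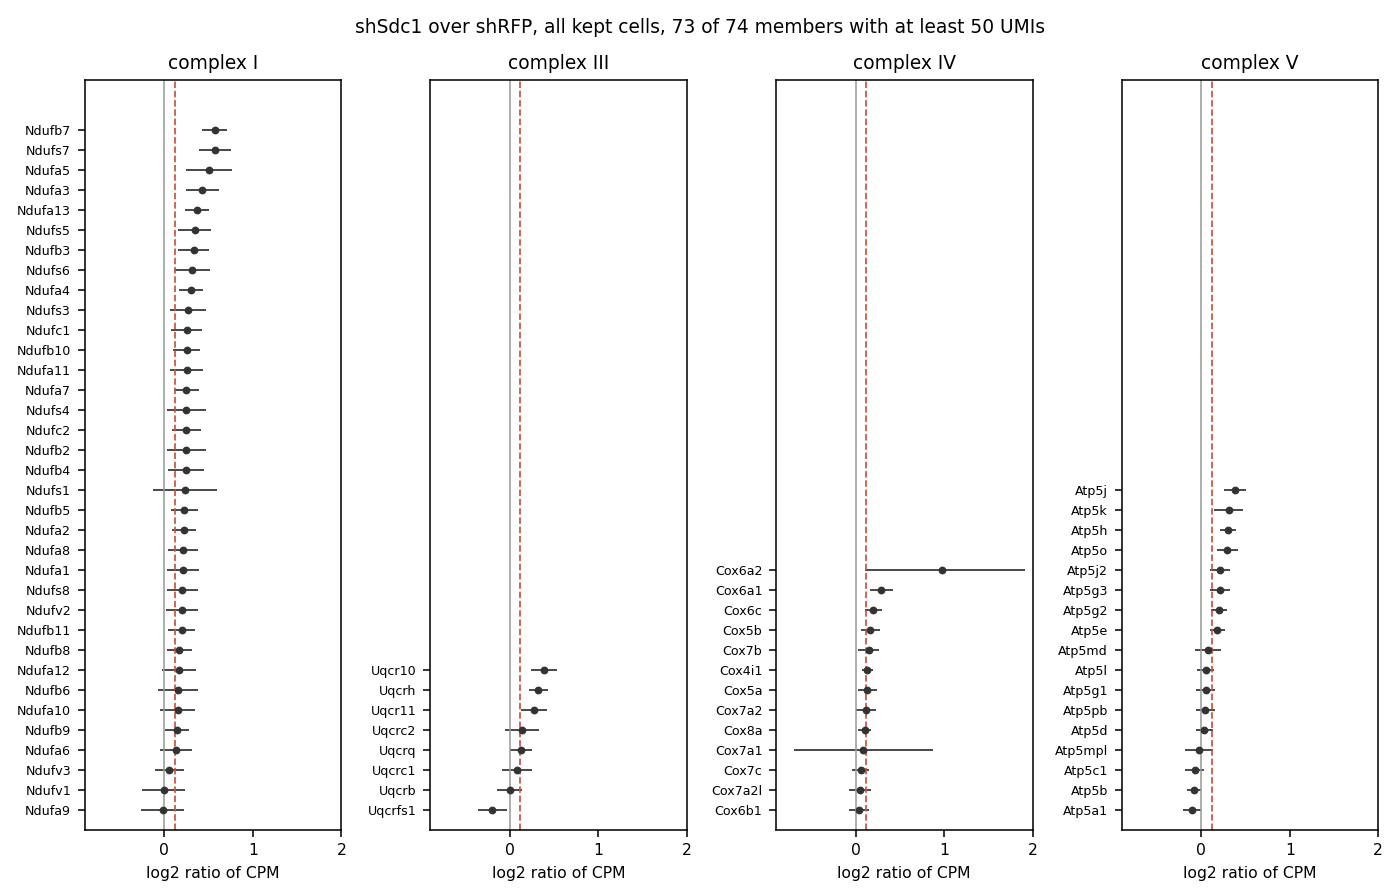
Each point is the log2 ratio of CPM, shSdc1 over shRFP, of 1 member over all kept cells, for 73 of the 74 measured members, in 4 panels by complex, with lines for the 95% counting interval; the solid line marks no difference and the dashed line the median of all genes at 0.12. Most members of complex I lie right of the dashed line, up to Ndufb7 and Ndufs7 at a ratio of 1.48, while Uqcrfs1, Atp5a1, Atp5b and Atp5c1 lie left of 0.

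Complex I had the members with the highest ratios among the well counted genes. Ndufb7, an accessory subunit on the side of the intermembrane space, was at 169 CPM in shRFP and 251 in shSdc1, a ratio of 1.48 (1.34 to 1.64). Ndufs7, a core subunit that holds the last iron-sulfur cluster before ubiquinone, was at 111 and 165 CPM, a ratio of 1.48 (1.31 to 1.68). Both were higher in shSdc1 by more than counting error, and Ndufa5 at 55.8 and 79.2 CPM followed with a ratio of 1.42. The complex I members with most UMIs were Ndufa2 at 218 and 253 CPM, Ndufa13 at 202 and 260 CPM and Ndufa4 at 205 and 253 CPM. Ndufa4 carries the name of complex I, although its protein is found with complex IV. The 7 core subunits summed to a ratio of 1.17 and the 29 measured accessory subunits to 1.19, so the groups did not separate.

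Complex III had members on both sides. Uqcr10, a small subunit, was at 178 and 232 CPM, a ratio of 1.31 (1.18 to 1.44). Uqcrfs1, the Rieske iron-sulfur protein that hands electrons to cytochrome c1, was at 168 and 146 CPM, a ratio of 0.87 (0.78 to 0.98), and was lower in shSdc1. Uqcrh, the hinge protein and the most counted member of the complex, was at 348 and 435 CPM. Uqcrq at 264 and 288 CPM and Uqcrb at 208 and 207 CPM differed less, the second by less than counting error.

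Complex IV held the most counted member of all, Cox4i1, at 926 CPM in shRFP and 1017 in shSdc1, a ratio of 1.10 (1.05 to 1.15). Cox8a followed at 693 and 745 CPM and Cox6c at 431 and 496 CPM. Every measured member of the complex had a ratio above 1, from Cox6b1 at 342 and 351 CPM (1.03, with an interval of 0.95 to 1.11) upward. Cox6a2 had the highest ratio, 1.97 (1.08 to 3.76), on only 17 and 35 UMIs, and was the single member past 1.5-fold, where 12% of genes were at least that much higher.

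Complex V differed by the part of the enzyme, a grouping made after the ratios were seen. The F1 head, the catalytic part made of Atp5a1 (alpha) and Atp5b (beta), took 0.0996% of UMIs in shRFP and 0.0935% in shSdc1, a ratio of 0.94 (0.90 to 0.98). The peripheral stalk, which holds the head still (Atp5pb, Atp5h, Atp5j and Atp5o), went from 0.132% to 0.156%, a ratio of 1.19 (1.14 to 1.23). So transcripts of these parts of 1 enzyme stood on opposite sides of 1. Atp5a1 had the lowest ratio of the complex at 383 and 357 CPM (0.93), and Atp5b was at 612 and 578 CPM (0.94). Atp5j, coupling factor 6, had the highest at 230 and 300 CPM (1.30, 1.19 to 1.42), and Atp5h was at 458 and 566 CPM. Atp5e, the epsilon subunit of the central stalk, was at 552 and 627 CPM. Within monocyte/macrophage-like cluster 0 the head had a ratio of 0.84 (0.76 to 0.93) and the stalk one of 1.01 (0.93 to 1.10). The head had a ratio of 0.97 (0.87 to 1.07) in T-like cells and of 1.08 (0.79 to 1.48) in cluster 11, both with intervals that include 1. The c ring of Atp5g1, Atp5g2 and Atp5g3 had a ratio of 1.12.

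The members with lower ratios were mostly the longer ones. By coding length, 21 of 22 measured members up to 300 bases had a ratio above 1, 23 of 24 up to 450, 14 of 14 up to 750, 6 of 11 up to 1500 and 1 of 3 beyond. Of all genes in these bins, 147 of 201, 357 of 497, 795 of 1320, 1826 of 3151 and 2658 of 3868 had a ratio above 1. The members up to 750 bases thus lay above the share of all genes, while 6 of 11 was near it. The median log2 ratios of the members were 0.20, 0.24, 0.21, 0.05 and -0.08, the last on 3 genes. Among all genes the bins did not fall in this way, with medians of 0.14, 0.16, 0.09, 0.07 and 0.17. Over the 74 members the Spearman correlation of the log2 ratio with coding length was -0.26, as a description across genes of the same 2 libraries.

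Promoter sequences were available for 65 of the 80 symbols, 250 bases before to 50 after the start in RefSeq (GRCm38.p6). Windows were searched on both strands for letters that the respiratory gene regulators NRF1, YY1, ETS factors (GABP among them) and ERR are known to bind, with CANNTG as a common motif beside them. The NRF1 motif (GCGC, any base, then TGCGC) was in the windows of 23.1% of members, 5.19% of all genes and 12.9% of genes measured here. AANATGGC (YY1) was in 26.2%, 6.96% and 11.2%. Both shares were larger among members than among measured genes, whereas CCGGAAG (ETS) was in 23.1% and 23.0% of them and CANNTG in 70.8% and 66.6%. TCAAGGTCA (ERR) was in 1.54% of members, which is 1 of 65, and 0.311% of measured genes. Overlaps between motifs were allowed. The median log2 ratio was 0.25 over 15 members with the NRF1 letters and 0.18 over 47 without, and for the YY1 letters 0.23 over 17 and 0.20 over 45, so the ratios of members with and without them were close.

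The 100 bases before the RefSeq start of 4 members with such letters are printed, and the NRF1 pair shows that high and low ratios occur beside the same motif. The GENCODE M21 positions differ, and by them each stretch lies wholly or partly inside its gene. For Ndufa5 and Atp5j it lies wholly inside, because those genes reach to 24528013 and 84835625. Ndufa5 (ratio 1.42; chr6:24527691-24527790, minus strand) and Atp5c1 (ratio 0.95; chr2:10080433-10080532, minus strand) both hold the NRF1 letters on the opposite strand. Ndufb7 (ratio 1.48; chr8:83566658-83566757, plus strand) holds the ETS letters, and Atp5j (ratio 1.30; chr16:84834977-84835076, minus strand) holds those of YY1 and ETS. Each is written 5′ to 3′ toward the start, with motif letters in capitals.
Ndufa5: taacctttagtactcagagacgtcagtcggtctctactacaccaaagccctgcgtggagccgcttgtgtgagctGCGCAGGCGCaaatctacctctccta
Atp5c1: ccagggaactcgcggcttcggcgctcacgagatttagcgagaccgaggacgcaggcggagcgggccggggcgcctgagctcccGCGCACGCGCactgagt
Ndufb7: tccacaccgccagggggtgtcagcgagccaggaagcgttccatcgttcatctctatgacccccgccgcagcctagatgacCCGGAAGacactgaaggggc
Atp5j: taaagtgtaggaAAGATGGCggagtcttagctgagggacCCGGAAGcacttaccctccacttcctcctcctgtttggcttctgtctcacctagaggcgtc
A match is a description of letters, and nothing was measured about binding.

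Across clusters the summed share of the members varied more than between libraries, where the ratio within a cluster ran from 0.91 to 1.27. The highest share was in monocyte/macrophage-like cluster 0 (led by Ccl8, Stab1 and C1qa), at 2.10% in shRFP and 2.07% in shSdc1, and the lowest in neutrophil-like cells, at 1.04% and 0.964%. T-like cluster 4 (Ifng, Cd8a) stood nearly as high at 2.05% and 2.04%. The order of the 16 clusters was alike in both libraries, with a Spearman correlation of 0.91, given as a description because the clusters of a library share its depth. The mt- genes kept their own order, with a correlation of 0.90 between libraries but only 0.12 and 0.16 with the nuclear members within them.

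**Figure D2:**
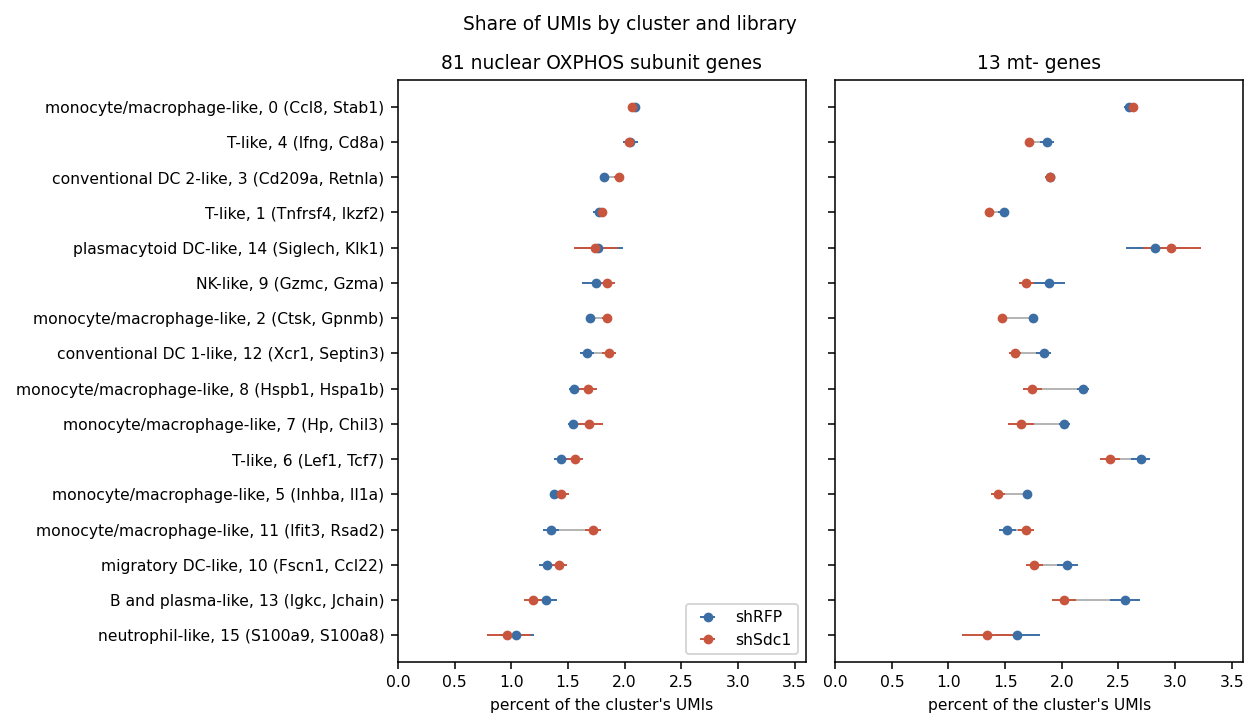
Each row is a cluster with its class and leading genes; points give the percent of the cluster's UMIs from the 81 nuclear members (left) and the 13 mt- genes (right) in shRFP (blue) and shSdc1 (red), with 95% counting intervals. Nuclear shares run from about 1% in neutrophil-like cells to 2.10% in cluster 0. They are higher in shSdc1 in 11 of the 16 clusters, while mt- shares are lower in shSdc1 in 12.

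Within the monocyte/macrophage-like class the clusters differed by more than the libraries did. Cluster 5 (Inhba, Il1a) had 1.37% in shRFP and 1.44% in shSdc1, cluster 7 (Hp, Chil3) 1.55% and 1.69%, cluster 8 (Hspb1, Hspa1b) 1.56% and 1.68%, and cluster 2 (Ctsk, Gpnmb) 1.69% and 1.84%. All 4 lay under cluster 0 in both libraries. Cluster 5 over cluster 0 gave a summed ratio of 0.66 in shRFP and 0.70 in shSdc1. Of the 71 measured members 49 were at least 1.2-fold lower in cluster 5 in both libraries, where 35.4% of all genes were. A ratio below 1 in both libraries was found for 66, a count without a share of all genes beside it.

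The cluster mix of the libraries also differed. Cluster 0 made up 10.7% of kept cells in shRFP and 23.3% in shSdc1, whereas clusters 5, 7 and 8 made up 13.8%, 11.2% and 8.45% in shRFP and 2.97%, 1.77% and 3.01% in shSdc1. The monocyte/macrophage-like class as a whole had 1.65% and 1.91% of UMIs from members, a ratio of 1.16 (1.14 to 1.18). With each cluster given the same weight in both libraries the ratio was 1.05, and inside cluster 0 it was 0.99 (0.96 to 1.01). There 7 of 71 measured members were at least 1.2-fold higher and 7 at least 1.2-fold lower, where 23.4% and 23.8% of genes were. Clusters 2, 5, 7 and 8 had ratios from 1.05 to 1.09. Cluster 11 (Ifit3, Rsad2), whose class name rests on 3 markers, stood apart, with 1.35% in 122 shRFP cells and 1.72% in 165 shSdc1 cells, a ratio of 1.27 (1.19 to 1.36). Of its 31 measured members 17 were at least 1.2-fold higher in shSdc1, where 24.3% of genes were.

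In monocyte/macrophage-like cells 64 of 73 measured members had a ratio above 1, as did 56.9% of all genes, and 35 were at least 1.2-fold higher, where 30.1% of genes were. The median log2 ratio was 0.25 against 0.07 for all genes. Members of complex I again stood highest, with a summed ratio of 1.24 (1.21 to 1.27). Ndufs7 was at 106 and 175 CPM (1.65, 1.40 to 1.95), Ndufa5 at 53.9 and 87.1 CPM (1.62, 1.28 to 2.05) and Ndufc1, an accessory subunit, at 138 and 209 CPM (1.51, 1.31 to 1.75). These 3 were past 1.5-fold, where 10.6% of genes were. Uqcrfs1 was the only measured member at least 1.2-fold lower, at 157 and 112 CPM (0.71, 0.60 to 0.84), where 20.7% of genes were. Within cluster 0 alone Uqcrfs1 was at 195 and 120 CPM (0.62, 0.47 to 0.81), a ratio at least as low as that of the whole class. In the 5 other clusters of the class its ratio was also below 1, from 0.54 in cluster 7 to 0.92 in cluster 5, with counting intervals that include 1. Within cluster 0 Ndufs7 was at 184 and 209 CPM, with an interval for its ratio of 0.89 to 1.46 that includes 1. Ndufa5 had 52 of 522064 UMIs in shRFP and 103 of 1014448 in shSdc1 in cluster 0. In cluster 2 it had 25 of 584818 and 47 of 537689. Cluster 5 over cluster 0 gave Ndufa5 ratios of 0.33 in shRFP and 0.30 in shSdc1. The part of the cluster mix in its class ratio was not tested.

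In T-like cells members took 1.77% of UMIs in shRFP and 1.87% in shSdc1, a ratio of 1.06 (1.03 to 1.08). Of 72 measured members 51 had a ratio above 1, as did 58.4% of all genes. At least 1.2-fold higher were 11, where 27.2% of genes, not matched to the members in UMIs, were. Ndufb8, an accessory subunit of the membrane arm, was the single member past 1.5-fold, at 128 and 209 CPM (1.63, 1.25 to 2.16), where 8.29% of genes were. Cox7a2l, a factor that joins complexes III and IV into supercomplexes, was the only member at least 1.2-fold lower, at 386 and 322 CPM (0.83, 0.70 to 0.99), where 15.5% of genes were. The T-like clusters 1, 4 and 6 held 398, 259 and 411 cells in shRFP and 827, 602 and 316 in shSdc1. Cox7a2l had 60 of 215279 UMIs in shRFP and 146 of 510115 in shSdc1 in cluster 1. It had 74 of 190188 and 148 of 439367 in cluster 4, and 83 of 156277 and 50 of 120129 in cluster 6. Cluster 1 over cluster 6 gave 0.52 in shRFP and 0.69 in shSdc1, and cluster 4 over cluster 6 gave 0.73 and 0.81. The part of the cluster mix in the Cox7a2l ratio was not tested. With clusters weighted alike the summed ratio of the members was 1.02.

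Conventional DC 2-like cells had 1.82% and 1.95% from members, a ratio of 1.07. Of 71 measured members 22 were at least 1.2-fold higher, where 21.7% of genes were, and 7 at least 1.2-fold lower, where 26.2% were. Ndufs7 at 110 and 186 CPM (1.696, 1.18 to 2.45), Ndufa3 at 99.3 and 155 CPM (1.56, 1.05 to 2.31) and Uqcr11 at 151 and 234 CPM (1.55, 1.13 to 2.13) were past 1.5-fold, where 6.91% of genes were. Ndufs7 was thus past 1.5-fold in both macrophage-like and conventional DC 2-like cells, and its T-like ratio was 1.08 (0.81 to 1.44). Whether these ratios differ between cell types was not tested.

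**Figure D3:**
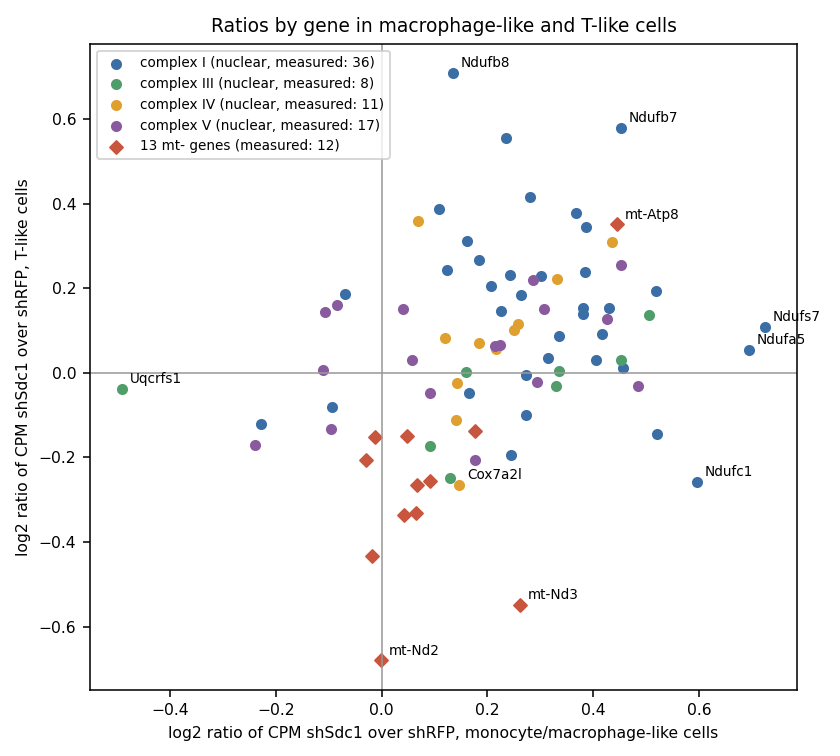
Each point is a gene with at least 50 UMIs in both classes, placed by its log2 ratio shSdc1 over shRFP in monocyte/macrophage-like cells (x axis) and T-like cells (y axis); circles are nuclear members by complex and diamonds mt- genes. Nuclear members lie mostly right of 0, whereas mt- genes other than mt-Atp8 lie under 0 on the T-like axis.

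Between cell types, T-like cells stood close to monocyte/macrophage-like cells, with a summed ratio of 1.07 (1.05 to 1.10) in shRFP and 0.98 in shSdc1, with an interval from 0.963 to 0.997. With TMM factors in place of CPM the ratios were 0.91 and 0.80, so which class was higher depended on the library and on the scaling, and no order is given. Of 72 measured members 9 were at least 1.2-fold higher and 9 at least 1.2-fold lower in T-like cells in both libraries, where 39.4% and 26.5% of all genes were. Both counts are below these shares of all genes, which were not matched to the members in UMIs.

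Migratory DC-like and B and plasma-like cells had the lowest levels after neutrophil-like cells. Migratory DC-like cells had 1.32% and 1.42% against 1.82% and 1.95% in conventional DC 2-like cells, ratios of 0.72 and 0.73. Of 63 measured members 32 were at least 1.2-fold lower there in both libraries, where 44.8% of genes were. B and plasma-like cells had 1.31% and 1.19%, ratios to T-like cells of 0.74 and 0.63, and 35 of 66 measured members were at least 1.2-fold lower in both libraries, where 44.7% of genes were. Both shares were near those of all genes. Measured here means at least 50 UMIs in each library over both classes of the pair. B and plasma-like members reached this only together with T-like counts. Cox8a, the most counted member in B and plasma-like cells, had 37 UMIs there in shRFP and 43 in shSdc1. Among 7 classes with enough cells, 35 of 73 members were lowest in B and plasma-like and 26 in migratory DC-like cells. No share of all genes is given beside these counts, and these classes hold only 1.63% and 2.62% of all UMIs.

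With both libraries summed, the members that varied most between classes were subunits of complex I, apart from Cox7a1 and Uqcr11. Ndufa5 ranged from 81.4 CPM in NK-like to 9.71 CPM in migratory DC-like cells, on 15 and 2 UMIs. Ndufa9 ranged from 125 CPM to 19.4 CPM between the same classes, on 23 and 4 UMIs, and Ndufa8 from 201 to 58.3 CPM, on 37 and 12 UMIs. Ndufb2 was highest in conventional DC 1-like cells at 116 CPM, Ndufs1 in T-like cells at 46.6 CPM and Uqcr11 in monocyte/macrophage-like cells at 229 CPM, each lowest in migratory DC-like cells at 24.3, 14.6 and 68.0 CPM. Ndufb8 ranged from 241 CPM in conventional DC 2-like to 54.7 CPM in B and plasma-like cells. By library these ranges rest on few UMIs, and whether they differ between libraries was not tested. Ndufb8 had 213 CPM in conventional DC 2-like and 87.7 CPM in B and plasma-like cells in shRFP, and 273 and 28.2 CPM in shSdc1. Its B and plasma-like values rest on 5 and 2 UMIs. Ndufa8 had 157 CPM in NK-like and 73.9 CPM in migratory DC-like cells in shRFP, and 212 and 45.0 CPM in shSdc1. These rest on 6 and 7 UMIs in shRFP and on 31 and 5 in shSdc1. Ndufa9 had 78.4 and 21.1 CPM in those classes in shRFP and 137 and 18.0 CPM in shSdc1. These rest on 3 and 2 UMIs in shRFP and on 20 and 2 in shSdc1. Ndufa5 had no UMI in shRFP migratory DC-like cells. Cox7a1 had 51 UMIs in monocyte/macrophage-like cells and none in conventional DC 1-like cells, which allows up to 8.28 CPM there. The low ends of the others rest on between 2 and 14 UMIs, and the order of neighbouring classes is not resolved. The median member differed 2.12-fold between its highest and lowest class. Counting error widens such a range, and no median over all genes is given beside it.

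Among T-like cells the sub-clusters spread widely. Sub-cluster 1, named naive T-like, had 1.44% of UMIs from members in shRFP and 1.59% in shSdc1. Sub-cluster 4, led by Srm and Gemin6, scored highest on the list of cell cycle markers, with 12 of them at least 2-fold higher. Holding 77 and 202 cells of high depth (median 1157 and 1337 UMIs), it had 2.19% and 2.18%. Its summed ratio to sub-cluster 1 was 1.52 and 1.38, and 21 of 29 measured members were at least 1.2-fold higher in both libraries, where 39.9% of genes were. Sub-cluster 0, named CD8 T-like, lay between at 1.95% and 1.93%. The mt- genes ran the other way, at 2.75% and 2.38% in sub-cluster 1 and 1.37% and 1.40% in sub-cluster 4. Molecules of mt- genes per nuclear OXPHOS molecule were thus 1.91 and 1.4997 in naive T-like cells and 0.628 and 0.642 in sub-cluster 4.

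Several complex IV subunits and Ndufa4 have tissue-specific or hypoxia-linked isoforms. Cox6a2, known as the heart and muscle isoform of Cox6a1, had 52 UMIs in all (gene at chr7:128205435-128206387, minus strand). Of these, 38 came from the 61 plasmacytoid DC-like cells, 13 UMIs in 27 shRFP cells and 25 in 34 shSdc1 cells, which is 835 CPM (445 to 1428) and 1384.5 CPM (896 to 2044). It was found in 33.3% and 44.1% of these cells, and in 19.2% and 32.3% after thinning each cell to 300 UMIs and leaving out 1 and 3 shallower cells. No Cox6a2 UMI was found in 1068 and 1745 T-like cells, which allows up to 0.281% and 0.172% of cells with a UMI, at median depths of 393 and 436 UMIs against 505 and 504.5 in plasmacytoid DC-like cells. The remaining 14 UMIs were single UMIs in 4 and 10 monocyte/macrophage-like cells. The ratio of 1.97 over all cells came from both classes, and within plasmacytoid DC-like cells the intervals of the libraries overlapped.

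The partner Cox6a1 was at 215 and 263 CPM over all cells, and at 297 CPM (143 to 547) in plasmacytoid DC-like cells with both libraries summed, where Cox6a2 was at 1130 CPM (800 to 1551). Plasmacytoid DC-like cells were therefore the only class in which the muscle isoform had the higher count, 38 UMIs against 10. Muscle markers over all kept cells made up 0.000234% and 0.000822% of UMIs.

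The other isoforms were rare. Cox4i2, the lung and hypoxia isoform of Cox4i1, had 20 and 10 UMIs, all 30 in monocyte/macrophage-like cells, a class that holds 55.9% of all UMIs. Ndufa4l2, a target of hypoxia-inducible factor, had 11 and 10 UMIs, again all in that class. Cox7a1, the heart and muscle isoform of Cox7a2, had 51 of its 59 UMIs there, at 10.3 and 13.2 CPM, and Cox6b2, the testis isoform of Cox6b1, had 15 of 41 there and 15 in conventional DC 2-like cells. Cox7b2, Cox8b and Cox8c had no UMI in any kept cell, which allows up to 0.779 and 0.747 CPM. The common partners Cox7a2 at 316 and 342 CPM, Cox7b at 280 and 311 CPM and Cox8a at 693 and 745 CPM were far above them.

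**Figure D4:**
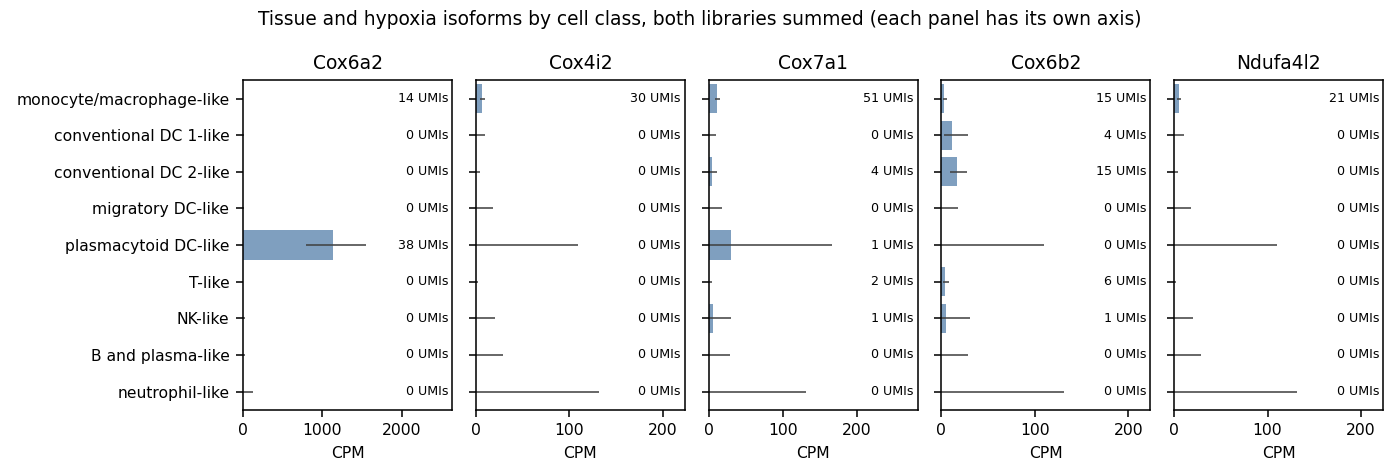
Bars give the CPM of 5 isoform genes by cell class with both libraries summed, lines the 95% counting interval, and numbers the UMIs; each panel has its own axis from 0. Cox6a2 reaches 1130 CPM in plasmacytoid DC-like cells with 38 UMIs, while the 30 UMIs of Cox4i2 and the 21 of Ndufa4l2 all lie in monocyte/macrophage-like cells.

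The 13 mt- genes took 1.98% of UMIs in shRFP and 1.90% in shSdc1, a ratio of 0.96 (0.95 to 0.97), against 1.12 for the nuclear members. Molecules of mt- genes per nuclear OXPHOS molecule were 1.18 in shRFP and 1.01 in shSdc1. Because cells with 10% or more mt- UMIs were removed, the mt- share is bounded by the filter itself. Thinned to 300 UMIs per cell, which also weights cells alike and leaves out those with fewer, the ratio was 1.001. With cells weighted alike and no thinning it was 0.99.

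The mt- genes pointed in different directions in the 2 largest classes. In T-like cells they took 1.95% and 1.62%, a ratio of 0.83 (0.81 to 0.85), and mt-Nd2, a complex I subunit, had the lowest ratio at 671 and 419 CPM (0.62). In monocyte/macrophage-like cells they took 1.996% and 2.10%, a ratio of 1.05 (1.04 to 1.06). The clusters of that class differed in direction. In clusters 2, 5, 7 and 8 the mt- ratio ran from 0.795 to 0.848, in cluster 0, which has the highest mt- share of the class at 2.59% and 2.63%, it was 1.01, and in cluster 11 it was 1.11 (1.04 to 1.18). With clusters weighted alike the class had 0.92, and thinned to 300 UMIs per cell 1.13. For T-like cells that weighting gave 0.91. Over the 16 clusters 12 had an mt- ratio below 1, whereas 11 had a nuclear ratio above 1.

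By gene over all cells, the complex IV subunit mt-Co1 was the most counted at 5039 and 4905 CPM, followed by mt-Co3 at 4445 and 4124 CPM, the ATP synthase subunit mt-Atp6 at 3128 and 2983 CPM and mt-Co2 at 2395 and 2462 CPM. The complex III subunit mt-Cytb was at 2007 and 1872 CPM. Of the complex I subunits, mt-Nd1 was at 962 and 916 CPM, mt-Nd4 at 896 and 861 CPM, mt-Nd2 at 574 and 502 CPM, mt-Nd5 at 169 and 154 CPM and mt-Nd3 at 108 and 110 CPM. The others were lower, with mt-Atp8 at 39.0 and 49.8 CPM, mt-Nd4l at 34.5 and 34.9 CPM and mt-Nd6 at 15.1 and 18.2 CPM. The ratio was below 1 for 8 of the 13 genes, from 0.87 for mt-Nd2, and at least 1.2 for mt-Nd6 (1.21) and mt-Atp8 (1.28), both on 350 UMIs or fewer.

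Deeper cells had a larger share of nuclear OXPHOS UMIs. Over all cells the nuclear members took 1.43% in shRFP cells under 400 UMIs and 1.97% in those of at least 2000, against 1.62% and 2.09% in shSdc1, and shSdc1 was higher in each of the 5 depth ranges. The mt- genes ran the other way, from 2.34% to 1.699% and from 2.29% to 1.43%. In monocyte/macrophage-like cells shSdc1 was likewise higher in each range, whereas in T-like cells of at least 2000 UMIs it was lower, at 2.36% in 42 cells against 2.65% in 10. The mt- share of monocyte/macrophage-like cells was higher in shSdc1 under 400 UMIs, at 3.07% against 2.52%, and lower from 2000 UMIs, at 1.54% against 1.77%, so its direction differed with depth as well.

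**Figure D5:**
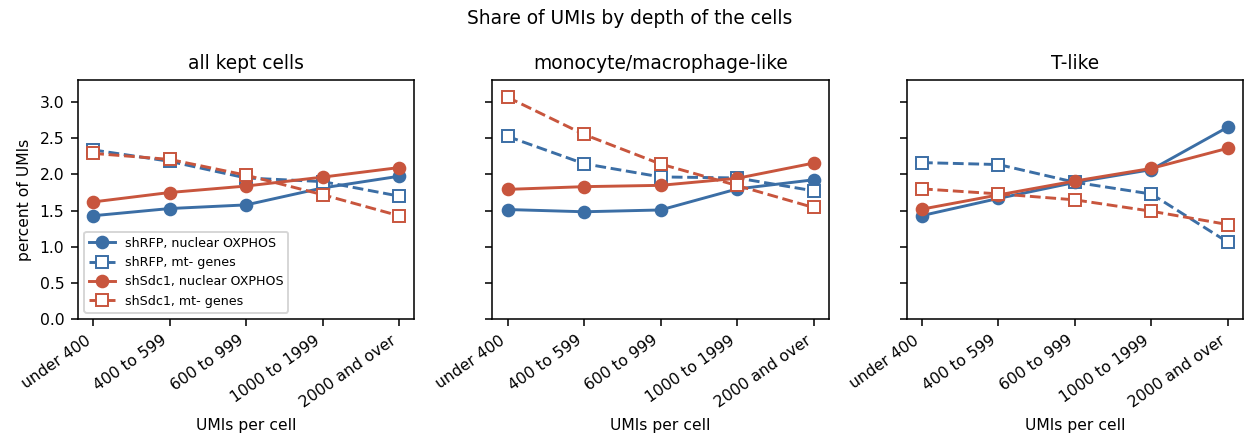
Points give the percent of UMIs from nuclear members (filled, solid lines) and mt- genes (open, dashed lines) by UMIs per cell, in shRFP (blue) and shSdc1 (red), for all cells and the 2 largest classes. In all cells nuclear shares are larger toward the right (1.43% to 1.97% in shRFP) and mt- shares smaller.

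Other lists of the pathway were read over all cells in the same way. Assembly factors, which build the complexes, had a summed ratio of 1.17, with 17 of 37 measured genes at least 1.2-fold higher (33.9% of all genes were) and 1 lower (14.8%), from Ttc19 at 36.6 and 25.9 CPM (0.71) to Atpaf1 at 6.49 and 10.5 CPM (1.61). Subunits outside the name pattern, such as those of complex II, had 1.11, from Sdhd (0.96) to the ATP synthase inhibitor Atpif1 (1.18), and mitochondrial ribosomal proteins had 1.11. Regulators of mitochondrial biogenesis had 1.31 on few counts, from Ppargc1b (1.07) to the mitochondrial DNA polymerase Polg (1.69). The citric acid cycle list stood at 0.999, from Sucla2 (0.81) to Fh1 (1.26), so it did not share the higher level of the respiratory subunits.

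Glycolysis and hypoxia genes were lower in shSdc1, at 1.40% and 1.04% of UMIs, a ratio of 0.74 (0.73 to 0.75). Of 20 measured genes 17 were at least 1.2-fold lower and none higher, where 14.8% and 33.9% of all genes were. They ranged from Egln3, a prolyl hydroxylase induced by hypoxia, at 60.5 and 25.2 CPM (0.42) to the hexokinase Hk1 at 48.3 and 55.6 CPM (1.15). The ratio was 0.75 in monocyte/macrophage-like and 0.96 in T-like cells. Genes known to respond to cell dissociation also moved with the group, at 1.42% and 0.814% of UMIs (0.57), with 16 of 17 at least 1.2-fold lower (14.8% of all genes were), from Hspa1a (0.36) to Jund (0.96). Egln3 and Hspa1a were among the leading genes of cluster 8, which made up 8.45% of kept cells in shRFP and 3.01% in shSdc1. No ratio with clusters weighted alike is given for either list, so the part of the cluster mix was not tested. Cell cycle genes had a ratio of 1.62, from Ccnb1 (1.27) to Top2a (2.36), and cytosolic ribosomal proteins one of 1.07. Whether dissociation stress, cycling or depth had a part in the OXPHOS ratios was not tested.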

How the data were processed

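Each deposited matrix lists unnormalized counts of UMIs by gene and cell barcode. Per the file headers they come from Cell Ranger 6.1.1, and per the submitters' processing notes from build mm10. Sources used here do not name the annotation release. Positions and coding lengths came from GENCODE M21. Barcodes with at least 200 genes and under 10% mt- UMIs were kept. Scrublet's automatic threshold marked 1 and 0 barcodes, too few to have worked, so the highest scores were removed at 0.8% per 1000 barcodes. Counts were scaled to 10000 per cell, and 2000 variable genes without OXPHOS, mt-, ribosomal and antigen receptor variable genes gave 30 components, 15 neighbours and Leiden clusters at resolution 1 (scanpy 1.11.5), named from marker lists. Sums of counts are given as CPM with exact Poisson intervals, and ratios with exact conditional binomial intervals (scipy 1.17.1). The ratio intervals were run on simulated Poisson counts, which follow the model they assume and hold no spread between cells or mice. With 1 library per group there is no test, and called means past 1.2-fold or 1.5-fold with at least 50 UMIs. Shares of all genes are over genes with the same minimum, not matched to the members in UMIs. For pairs of cell groups the minimum held in each library over both groups summed, so members could pass through the group where they were higher. TMM factors came from edgeR 4.0.16. A share at 0 allows 3 counts.

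The members, gene lists and pairs were chosen with earlier results of these data known. Genes were named by rule: in each complex the highest and lowest ratio and the 3 most counted members; members past 1.5-fold whose interval leaves out 1, over all cells and in classes with at least 200 cells in each library; the 8 with the widest range between classes; 8 isoforms and their partners; the mt- genes; and the extremes of each list of named genes. For 1 member that the rule names, the values are not reported here. Atp5c1, Ndufa5 over all cells and within clusters, Cox7a2l and Uqcrfs1 within classes and clusters, and the genes whose promoters are printed were chosen after their values were seen. Alternatives covered cell filters, doublets, scaling, weighting, thinning, member choice and clustering.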

Additional observations from a re-analysis of the deposited data

Results flagged for a closer look

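The ratio of shSdc1 over shRFP for the mt- genes was 1.05 in the monocyte/macrophage-like class and 0.83 in the T-like class, on opposite sides of 1 with both counting intervals leaving out 1. The same held for 5 of the single genes. In the same order of classes the ratios were 1.06 and 0.84 for mt-Co1, 1.13 and 0.91 for mt-Co2, 1.05 and 0.83 for mt-Atp6, 1.03 and 0.79 for mt-Co3, and 1.199 and 0.68 for mt-Nd3. With 1 library per group the difference between the classes was not tested. Weighting clusters alike in both libraries, an alternative chosen after seeing the data, gave 0.92 in monocyte/macrophage-like and 0.91 in T-like cells, so the opposite directions were not present under that weighting. No nuclear complex and no nuclear member with at least 50 UMIs in both classes met the same criterion.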

How the results depend on the processing

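No paired analysis was possible because each group is 1 library. Intervals cover counting error only, 6 pooled tumors per library leave the spread between mice unmeasured, and library and group cannot be told apart; class names rest on markers and shallow cells. Unless stated, the cause of a shift was not tested.

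The summed ratio of the nuclear members stayed above 1 over 15 alternatives in all cells (1.03 to 1.15, reported 1.12), monocyte/macrophage-like cells (1.05 to 1.19, reported 1.16) and T-like cells (1.002 to 1.06, reported 1.06). In that order, cells with at least 500 genes gave 1.09, 1.11 and 1.002, TMM factors 1.03, 1.11 and 1.01, median-of-ratios factors 1.03, 1.11 and 1.01, and clusters weighted alike 1.05, 1.05 and 1.02. In all and monocyte/macrophage-like cells, thinning to 300 UMIs gave 1.13 and 1.19 and the median over members 1.15 and 1.19. Without ribosomal protein counts, all cells had 1.13 and T-like cells 1.03. Each cell weighted alike gave 1.18 in monocyte/macrophage-like cells, and clusters at resolution 0.5, where CD8 cells joined an NK-named cluster, 1.01 in T-like cells.

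The mt- ratio over all cells (reported 0.96) reversed to 1.001 when thinned. It was 0.91 with at least 500 genes, 0.92 under 5% mt-, 0.97 with no mt- limit, 0.97 without ribosomal proteins, 0.88 with TMM, 0.88 with median-of-ratios, 0.99 with each cell and 0.92 with clusters weighted alike, and 0.95 without the 5 most counted genes. With no UMI minimum, 2 members in all cells, 2 in monocyte/macrophage-like (reported 1) and 3 in T-like cells (reported 1) were at least 1.2-fold lower, with a minimum of 20 the first groups also had 2 each, and with a minimum of 200, 6 T-like members (reported 11) were at least 1.2-fold higher. Chosen after seeing the data, clusters weighted alike reversed the monocyte/macrophage-like mt- ratio from 1.05 to 0.92, and thinning gave 1.13 there and 0.82 in T-like cells.

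T-like over monocyte/macrophage-like (reported 1.07) in shRFP reversed to 0.91 with TMM and 0.93 with median-of-ratios, and was 1.18 with at least 500 genes, 1.203 without ribosomal proteins, 1.02 with each cell and 1.04 with clusters weighted alike. In shSdc1 (reported 0.98) it reversed to 1.06 with at least 500 genes, 1.06 without ribosomal proteins and 1.01 with clusters weighted alike, and was 0.96 without doublet removal, 0.80 with TMM, 0.80 with median-of-ratios, 0.92 with each cell weighted alike, 0.95 thinned, 0.95 by the median member and 0.94 at resolution 0.5.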
